A study of Mus musculus with 3 samples.

Results

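Potassium channel genes were described in spinal cord of mouse embryos at embryonic day 13.5, in 3 libraries of 1 genotype each. The members were the genes whose symbol is Kcn followed by letters and a final number, which gave 92 genes of the 51826 in the deposited gene table. A gene was measured where any library held 20 or more estimated counts of it, which left 75 of the 92 members and 18074 genes in all. They covered 20 subfamilies, each marked by the letters after Kcn. The dE3 embryos carried Nestin-Cre and a floxed exon 3 of Ctnnb1, a gain of function by the labels. The cKO embryos carried Nestin-Cre and floxed exons 2 to 6 of Ctnnb1, a loss of function by the labels. The WT embryos were wild type, and all embryos were C57BL/6. Nestin-Cre acts mainly in neural progenitors and their offspring, and which cells of the dissected cord had recombined was not tested here. Neither the number of embryos per library nor the Cre status of the WT embryos is given in the labels.

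Ctnnb1 encodes β-catenin, a cadherin-binding protein that also activates TCF/LEF target genes when Wnt signals stabilise it. Potassium channels let potassium ions leave or enter cells along their gradient, and thereby set the resting potential, end action potentials and control firing patterns. Voltage-gated pores open on depolarisation, inward rectifiers and leak channels work near rest, and calcium- or sodium-activated pores respond to ions inside the cell. Accessory subunits form no pore and alter the gating or traffic of the pore subunits. In the cord, neurons hold most of this repertoire, while astrocytes take up extracellular potassium through inward rectifiers.

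Pore subunits share the selectivity filter, a short loop in which the codons for threonine, any residue, glycine, tyrosine and glycine often follow each other. The stretches below are from GENCODE vM21 coding sequences (mouse, GRCm38) of some members on which the results turn, namely an inward rectifier, 2 leak channels, 2 voltage-gated pores and the large-conductance pore, with these 5 codons in capitals and 9 bases on each side in lower case.
Kcnj10: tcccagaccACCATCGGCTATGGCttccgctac
Kcnk5: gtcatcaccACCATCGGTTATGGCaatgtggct
Kcnk6: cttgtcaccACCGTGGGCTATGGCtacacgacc
Kcnc1: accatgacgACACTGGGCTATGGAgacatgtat
Kcna6: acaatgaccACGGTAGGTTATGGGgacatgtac
Kcnma1: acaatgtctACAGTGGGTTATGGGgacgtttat
Read in frame on the coding strand, the pattern ACNNNNGGNTATGGN or ACNNNNGGNTACGGN occurred in 44 of the 64 measured members other than accessory subunits (68.8%). It occurred in 0 of the 11 measured accessory subunits and in 116 of 21584 protein-coding genes (0.537%). No match was found in the 8 Kcnh genes, whose proteins mostly carry phenylalanine in place of the tyrosine. A missing match says only that these letters are absent in this frame.

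The tissue label was checked only in part, against marker genes of neural tissue that do not single out spinal cord. The neuronal marker Tubb3, a tubulin, stood at 2414 TPM in dE3, 2737 TPM in cKO and 2363 TPM in WT, and the progenitor marker Sox2 at 152 TPM in dE3, 87.9 TPM in cKO and 112 TPM in WT. Tubb3 does not stand for all neuronal markers. Of the 15 listed, 13 lay below 0 and 2 above on the log2 scale in dE3 against WT. TPM (transcripts per 1e6) is the deposited level, corrected for length. The libraries held 34790053 (dE3), 33048837 (cKO) and 32167470 (WT) estimated counts, of which the members took 0.131% in dE3, 0.149% in cKO and 0.146% in WT. The name of the cKO library carries the tag L3 and those of the dE3 and WT libraries the tag L2, so that this tag and the cKO genotype cannot be told apart. Ctnnb1 itself stood at 461 CPM in dE3, 422 CPM in cKO and 544 CPM in WT, which checks the labels only in part, since exons outside the deleted ones are counted too. CPM is the count per 1e6 counts after scaling by the trimmed mean of M values (TMM). With 1 library per genotype there is no replicate check, and every interval below covers counting error only, so the values compare these libraries and not the genotypes at large.

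The median potassium channel gene was of lower level than the median measured gene. Among the highest members by TPM in WT was Kcnmb4, an accessory subunit of the large-conductance calcium-activated channel, at 93.8 TPM. Kcnip1, a calcium-binding partner of Kv4 channels, stood at 75.1 TPM, and Kcnh2, the ERG channel, at 49.5 TPM. Others were Kcnc1 (44.4 TPM), Kcnab2 (33.5 TPM), Kcnd2 (32.4 TPM), Kcnn1 (31.2 TPM), Kcnma1 (30.1 TPM) and Kcnk9 (28.6 TPM) in WT. In dE3 these genes ranged from 23.6 TPM for Kcnma1 to 54.6 TPM for Kcnip1, and in cKO from 27.7 TPM for Kcnk9 to 96.6 TPM for Kcnmb4. The median measured member stood at 6.23 TPM in dE3, 7.71 TPM in cKO and 6.67 TPM in WT, below the median of all measured genes (18.1 TPM in dE3, 17.5 TPM in cKO and 17.2 TPM in WT). Below the count minimum lay 17 members, of which Kcna10, Kcnj1, Kcnk16 and Kcnk18 had 0 counts in all 3 libraries. A count of 0 allows up to 3 counts, or 0.0856 CPM in dE3, 0.0908 CPM in cKO and 0.0939 CPM in WT. Kcng3 lay just outside the minimum with at most 19 counts, and Kcnj15 just inside it with at most 22.

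**Figure D1:**
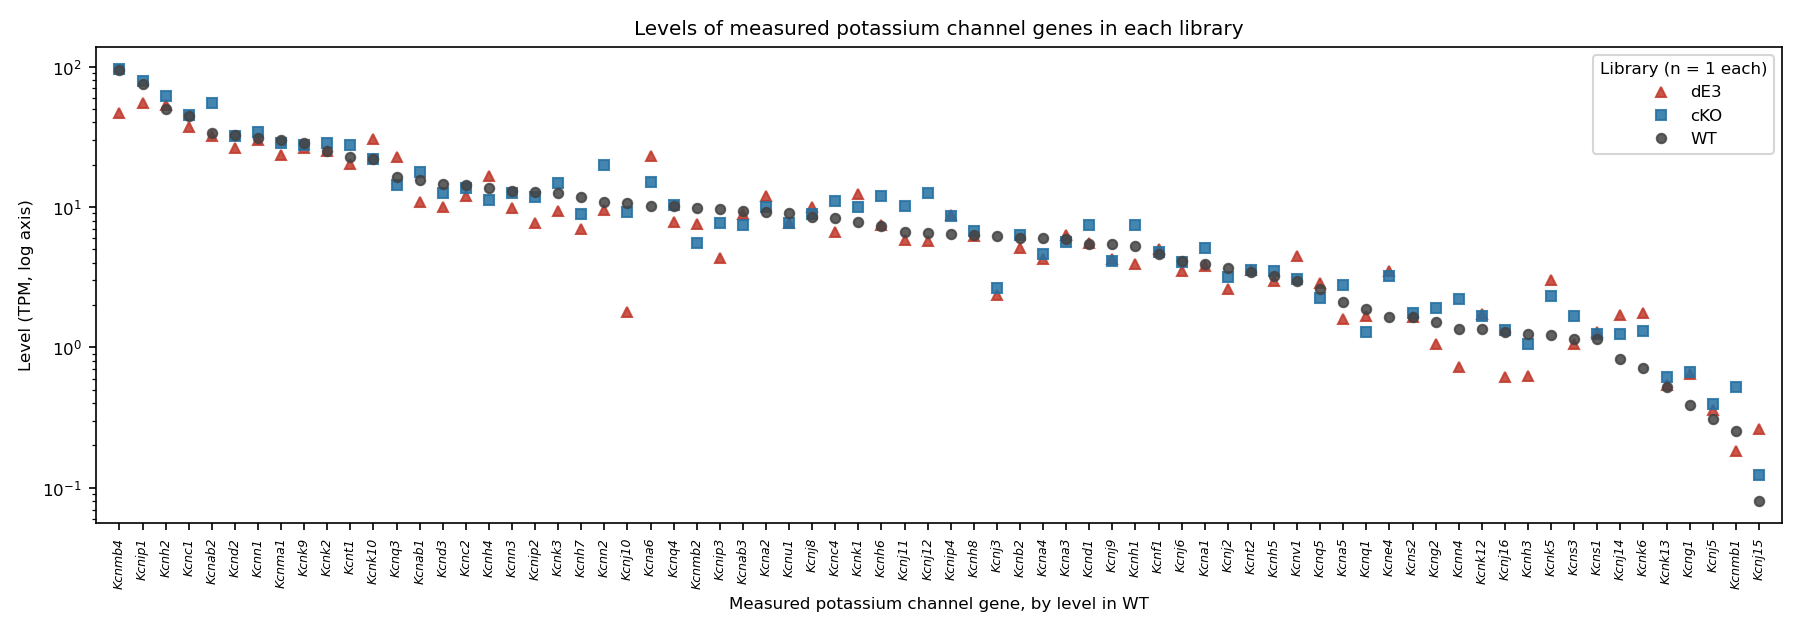
Level of 72 of the 75 measured potassium channel genes (x axis, ordered by WT) in TPM on a log axis, with 1 point per library: dE3 triangles, cKO squares, WT circles. Levels run from 93.8 TPM (Kcnmb4) down to 0.0799 TPM (Kcnj15) in WT, and the point lying farthest below the others is Kcnj10 in dE3, at 1.78 TPM.

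A gene was called higher or lower where the ratio of scaled counts was at least 2 in that direction and its 95% counting interval excluded 1. In dE3 against WT, 5 of 75 members were called higher (6.67%), where 6.52% of all measured genes were. Another 5 were called lower (6.67%), where 3.78% of all genes were, so that 10 were called in either direction (13.3%), against 10.3% of all genes. In cKO against WT, 1 member was called higher and 1 lower (1.33% each), where 3.48% of all genes were higher and 3.41% lower, which makes 2.67% of members called against 6.89% of all genes. In dE3 against cKO, 1 member was called higher (1.33%), where 6.62% of all genes were, and 8 were called lower (10.7%), where 4.38% of all genes were, or 12% of members called in either direction against 11% of all genes. The share called higher in dE3 against WT is thus close to that of all genes, and the shares called lower in dE3 lie above it. Among genes with at least 100 counts in a library, 3 of 61 members were lower in dE3 against WT (4.92%, against 1.76% of 13967 genes), and 4 of 61 in dE3 against cKO (6.56%, against 2.56%). The comparisons share libraries, so their counts are not independent of each other.

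Most measured members lay below 0 on the log2 scale in dE3 against WT. Their median log2 ratio was −0.18 in dE3 against WT, with 22 genes above 0 and 53 below, while the median of all measured genes was 0.00. In cKO against WT the median was 0.07, with 48 genes above 0 and 27 below. By role, the dE3 against WT medians were −0.18 for 28 voltage-gated pores, 0.11 for 7 electrically silent modifiers, −0.31 for 12 inward rectifiers, 0.33 for 9 leak channels, −0.40 for 8 ion-activated pores and −0.46 for 11 accessory subunits. In cKO against WT they were 0.02 for voltage-gated pores, 0.12 for silent modifiers, 0.04 for inward rectifiers, 0.32 for leak channels, −0.02 for ion-activated pores and 0.06 for accessory subunits. Leak channels were therefore the class with the highest median in both, and the accessory subunits the class with the lowest in dE3.

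**Figure D2:**
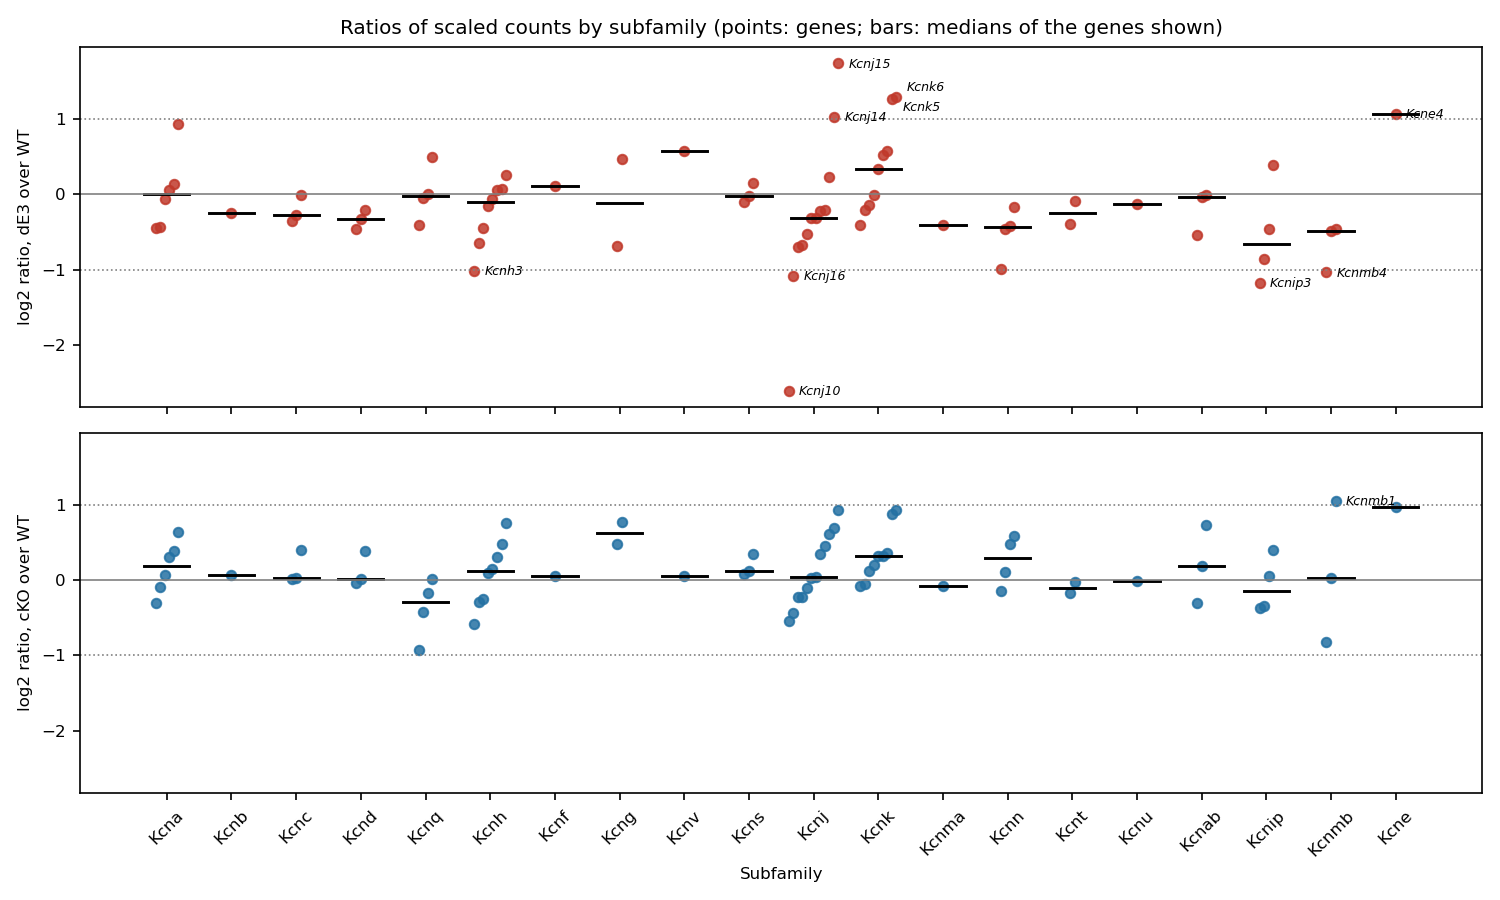
Log2 ratio of scaled counts (y axis) of 72 measured members by subfamily (x axis), for dE3 over WT (upper panel) and cKO over WT (lower panel); short bars are the medians of the genes shown, the grey line is the median of all measured genes and dotted lines mark 2-fold. Called genes are named: 10 in the upper panel, with Kcnj10 at −2.61, and Kcnmb1 in the lower.

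In dE3 against WT, the inward rectifiers held both the lowest and the highest ratio of all measured members. The highest, Kcnj15, met the count minimum through dE3 alone, so its high ratio partly follows from the filter. Kcnj10, the main potassium-uptake channel of astrocytes, had 136 counts in dE3, 670 in cKO and 757 in WT (3.88 CPM in dE3, 20.3 CPM in cKO and 23.7 CPM in WT). The dE3 library stood far below the other two, which were close to each other. Kcnj10 (chromosome 1, 172341210 to 172374085, plus strand, GRCm38) was 6.11-fold lower in dE3 than in WT (5.08 to 7.38), and its ratio was 0.191 (0.158 to 0.230) in dE3 against cKO and 0.856 (0.771 to 0.951) in cKO against WT. Kcnj16, whose product pairs with that of Kcnj10 in one channel, had 32 counts in dE3, 66 in cKO and 62 in WT. Its ratio was 0.471 (0.297 to 0.732) in dE3 against WT and 1.03 (0.717 to 1.48) in cKO against WT, so dE3 again stood alone. Its counts in dE3 and WT lay in a single transcript. In bulk tissue, fewer cells of a type and less RNA per cell cannot be told apart.

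Astrocyte lineage markers were also mostly lower in dE3. Of 12 markers, 7 were lower, 1 higher and 4 neither in dE3 against WT, with a median log2 ratio of −1.34, and 0 of 12 were called in cKO against WT, with a median of 0.03. Their summed level was 927 TPM in dE3, 1749 TPM in cKO and 1995 TPM in WT, or, in scaled counts, 1235 CPM in dE3, 1558 CPM in cKO and 1637 CPM in WT, where the log2 ratio of the sums was −0.41 in dE3 against WT. Among them the GABA transporter Slc6a11 stood at 20.1 CPM in dE3, 178 CPM in cKO and 160 CPM in WT, and Fabp7, a fatty-acid-binding protein of radial glia, at 146 CPM in dE3, 358 CPM in cKO and 446 CPM in WT. Hepacam, a glial adhesion protein, stood at 3.57 CPM in dE3, 11.7 CPM in cKO and 17.2 CPM in WT. These markers were named because their intervals lay farthest from 1. In dE3 against WT, 3 of the 12 markers lay above 0, at log2 ratios up to 1.01. No astrocyte marker was at 0 counts in any library. Oligodendrocyte precursor markers were lower for 4 of 9 and neither for 5 in dE3 against WT. Their median log2 ratio was −0.23, with 3 markers above 0, up to 0.97. Among the lower ones was Olig2, at 0 counts in dE3, 452 in cKO and 532 in WT. The part of these cell types in the Kcnj10 and Kcnj16 values was not tested.

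The other inward rectifiers went both ways. Kcnj14, a strong rectifier, had 65 counts in dE3, 46 in cKO and 29 in WT, and was 2.04-fold higher in dE3 than in WT (1.3 to 3.28), though 31.0% of its sampled sequence also occurs in the gene Gm5522. Kcnj15 had 22 counts in dE3, 10 in cKO and 6 in WT, a ratio of 3.34 in dE3 against WT whose interval of 1.31 to 10.1 shows how few counts it rests on. Both were highest in dE3 and lowest in WT. Kcnj12, another strong rectifier, had 185 counts in dE3, 389 in cKO and 197 in WT, and here the cKO library stood apart. Its ratio was 1.91 (1.61 to 2.28) in cKO against WT, just under the limit, and 0.448 (0.374 to 0.535) in dE3 against cKO. Kcnj11, the pore of the ATP-sensitive channel, was likewise lowest in dE3 and highest in cKO, with 185 counts in dE3, 387 in cKO and 274 in WT, and was called only in dE3 against cKO (ratio 0.450, 0.376 to 0.538), but not by TPM (log2 ratio −0.79). The G-protein-gated subunits Kcnj3, Kcnj5, Kcnj6 and Kcnj9, and Kcnj2 and Kcnj8, were called in no comparison, with ratios from 0.628 to 1.17 in dE3 against WT. By the deposited TPM, in place of scaled counts, Kcnj3 was called lower against WT in both mutants, at 2.35 TPM in dE3, 2.65 TPM in cKO and 6.21 TPM in WT, and its short transcript Kcnj3-203 had 1 count in dE3, 1 in cKO and 92 in WT. Kcnj3-203 has 0 bases of its own among 1679, and 26.3% of the sampled Kcnj3 sequence also occurs in Gm26794.

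Leak channels set the resting potential and have a pair of pore loops per subunit. Kcnk5 (TASK type, open at alkaline pH) had 143 counts in dE3, 106 in cKO and 54 in WT, and Kcnk6 (TWIK type) had 102 counts in dE3, 72 in cKO and 38 in WT. Both were highest in dE3, with cKO between dE3 and WT. Kcnk5 was 2.41-fold higher in dE3 than in WT (1.75 to 3.37) and Kcnk6 2.45-fold higher (1.67 to 3.65). In cKO against WT the ratios were 1.90 (1.36 to 2.69) for Kcnk5 and 1.83 (1.22 to 2.79) for Kcnk6, under the limit. The more abundant leak channels moved less. Kcnk10, the most abundant by counts, had 2093 counts in dE3, 1298 in cKO and 1327 in WT, a ratio of 1.44 (1.34 to 1.54) in dE3 against WT and 0.946 (0.876 to 1.02) in cKO against WT. Kcnk9 was close to level, with 447 counts in dE3, 449 in cKO and 451 in WT.

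Voltage-gated pores made up the largest class, and 1 of its 28 genes was called in dE3 against WT. Kcnh3, an ELK channel, had 32 counts in dE3, 51 in cKO and 59 in WT, a ratio of 0.494 (0.311 to 0.773) in dE3 against WT, at the edge of the limit. With scaling by DESeq2 size factors or by library totals it was no longer called. The abundant genes given here stayed within narrow ratios. Kcnc1, a fast-spiking Kv3 pore, had 3453 counts in dE3, 4001 in cKO and 3819 in WT (ratio 0.824, 0.787 to 0.863, in dE3 against WT). Its interval excludes 1, yet the distance is small beside the 2-fold limit. The Kv4 pore Kcnd2, which carries fast-inactivating current, had 1897 counts in dE3, 2196 in cKO and 2174 in WT, a ratio of 0.796 (0.748 to 0.846) in dE3 against WT. Kcna2, a Kv1 pore of axons, had 1555 counts in dE3, 1405 in cKO and 1292 in WT, and Kcnh2 had 2548 counts in dE3, 2864 in cKO and 2236 in WT. All 3 Kv4 genes lay below 0 in dE3 against WT on the log2 scale. The Kv1, Kv7 and Kcnh genes were on both sides of 0.

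Electrically silent modifiers form no channel alone and change the gating of Kv2 pores. None of the 7 measured was called against WT in either mutant. Kcng2 had 34 counts in dE3, 72 in cKO and 50 in WT, and was called lower in dE3 against cKO (ratio 0.445, 0.287 to 0.678), but not by TPM (log2 ratio −0.84). Kcnv1 had 286 counts in dE3, 186 in cKO and 174 in WT, a ratio of 1.5 (1.24 to 1.82) in dE3 against WT, whereas Kcnf1, with 340 counts in dE3, 308 in cKO and 287 in WT, differed little. Kcns2 had 102 counts in dE3, 103 in cKO and 94 in WT. All 7 modifiers lay above 0 in cKO against WT, at log2 ratios up to 0.77, and none of their counting intervals excluded 1.

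Most pores classed here as ion-activated, though not Kcnu1, couple potassium current to calcium or sodium inside the cell. All 8 lay below 0 on the log2 scale in dE3 against WT, with intervals excluding 1 for 6 of them, and 0 were called. Intervals wholly below 1 were common at this depth, with 34 of all 75 members and 5206 of 18074 measured genes. Kcnma1, the large-conductance pore, had 1450 counts in dE3, 1710 in cKO and 1753 in WT, a ratio of 0.754 (0.703 to 0.809) in dE3 against WT. Kcnn3, a small-conductance pore, had 832 counts in dE3, 940 in cKO and 1010 in WT, and Kcnn1 had 727 in dE3, 830 in cKO and 743 in WT. Both were lowest in dE3. Kcnn4, the intermediate-conductance pore, had 21 counts in dE3, 59 in cKO and 38 in WT, and was called lower in dE3 against cKO only (ratio 0.335, 0.194 to 0.560). The sodium-activated Kcnt1 had 977 counts in dE3, 1189 in cKO and 1174 in WT. Kcnu1, a channel known from sperm, had 105 counts in dE3, 108 in cKO and 105 in WT.

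Among the accessory subunits, Kcnmb4 and Kcnip3 were lower and Kcne4 higher in dE3 than in WT. Kcnmb4, the neuronal β subunit of the Kcnma1 channel, had 898 counts in dE3, 1770 in cKO and 1678 in WT (46.5 TPM in dE3, 96.6 TPM in cKO and 93.8 TPM in WT). The dE3 library stood below both others, which were close to each other, and the ratio in dE3 against WT was 0.488 (0.449 to 0.529), against 0.754 for its pore partner Kcnma1. Of the Kcnmb4 sequence, 36.5% is shared with the antisense genes Kcnmb4os1 and Kcnmb4os2, and the use of strand in counting is not given, so reads of these genes cannot be told apart. From protein-coding transcripts only, its log2 ratio in dE3 against WT was −0.99, just under the limit. Kcnip3, a Kv4 partner also known as the transcriptional repressor DREAM, had 166 counts in dE3, 278 in cKO and 341 in WT, a ratio of 0.444 (0.366 to 0.536) in dE3 against WT. Without the transcript Kcnip3-203 its log2 ratio was −0.62, which is not called. Kcnip1 had 1458 counts in dE3, 1967 in cKO and 1830 in WT, a ratio of 0.726 (0.678 to 0.779). Kcne4, a single-span subunit that inhibits some Kv channels, had 131 counts in dE3, 115 in cKO and 57 in WT, and was 2.10-fold higher in dE3 (1.52 to 2.91) and 1.95-fold higher in cKO (1.41 to 2.73) than in WT. Kcnab2, a β subunit of Kv1 channels, had 1452 counts in dE3, 2298 in cKO and 1335 in WT, a ratio of 1.67 (1.56 to 1.78) in cKO against WT. Kcnmb1, the smooth muscle β subunit, was the member called higher in cKO, with 11 counts in dE3, 30 in cKO and 14 in WT (ratio 2.07, 1.07 to 4.23, in cKO against WT). Kcnmb1 met the count minimum through cKO alone, so its higher value there partly follows from the filter. It lies within Kcnip1 on the opposite strand.

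**Figure D3:**
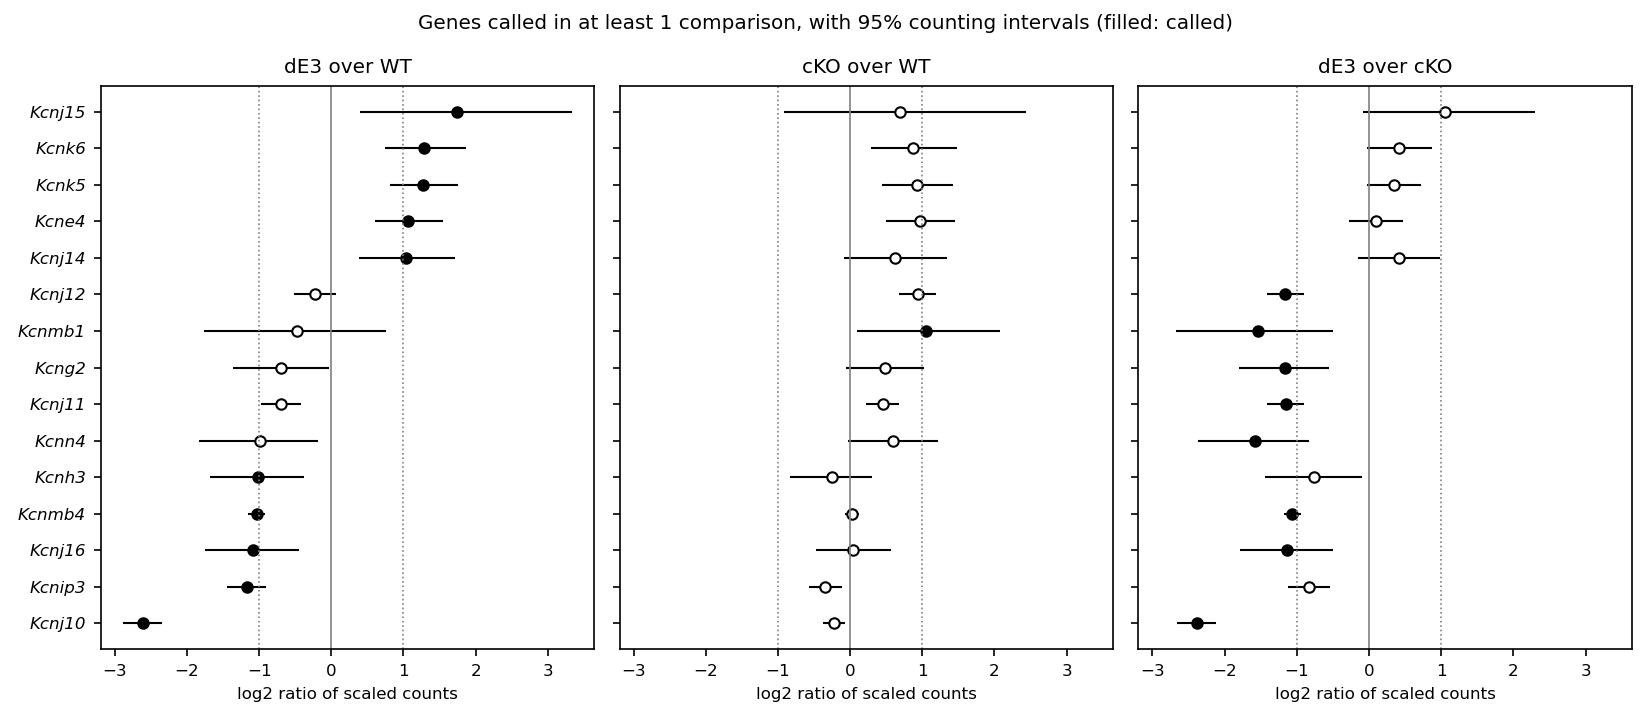
Log2 ratio of scaled counts with 95% counting interval (x axis) of 15 of the 16 members called in at least 1 comparison (rows), for dE3 over WT, cKO over WT and dE3 over cKO; filled points are called and dotted lines mark 2-fold. Kcnj10 lies lowest in dE3 against both other libraries, at −2.61 and −2.39, and Kcnmb1 is the gene filled in cKO over WT.

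Skeletal muscle and cartilage markers were mostly higher in both mutant libraries. The 5 members called higher in dE3 against WT (Kcnk5, Kcnk6, Kcnj14, Kcnj15 and Kcne4) had more counts in both than in WT. Other members, such as Kcna6 by its gene count, did so too. The 5 were picked by their ratio to the same WT library, so their direction in cKO against WT is not independent of that choice. Of all 75 measured members, 48 lay above 0 in cKO against WT. The muscle markers were higher for 15 of 16 in dE3 and 11 of 16 in cKO against WT, with summed levels of 787 TPM in dE3, 85.5 TPM in cKO and 28.1 TPM in WT. Cartilage markers were higher for 12 of 13 in dE3 and 10 of 13 in cKO, with sums of 714 TPM in dE3, 345 TPM in cKO and 144 TPM in WT. Epidermis markers were higher for 7 of 9 measured in dE3 and 1 of 9 in cKO, with sums of 38.8 TPM in dE3, 19.1 TPM in cKO and 15.8 TPM in WT. The muscle list had 1 marker at 0 counts in WT, the troponin Tnni1, and 0 in the mutant libraries. Pericyte and smooth muscle markers, of the cells for which Kcnmb1 is known, were higher for 2 of 10 in dE3 and 4 of 10 in cKO, with sums of 184 TPM in dE3, 165 TPM in cKO and 127 TPM in WT. Dorsal root ganglion markers had a median log2 ratio of −0.36 in dE3 and 0.80 in cKO against WT. The part of these tissues in the channel values was not tested.

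Neuronal markers and other ion channels were set beside the potassium channels. None of 15 neuronal markers was called in dE3 against WT, and their median log2 ratio was −0.36, against −0.18 for the potassium channel genes. Voltage-gated sodium channels had a median of −0.37 over 13 measured genes, with Scn4a (21 counts in dE3, 0 in cKO and 0 in WT), the muscle channel, higher and Scn11a (9 counts in dE3, 21 in cKO and 27 in WT), a sensory neuron channel, lower. Voltage-gated calcium channels had a median of −0.26 over 16, with the muscle channel Cacna1s higher and the R-type pore Cacna1e lower, at 41.0 CPM in dE3, 124 CPM in cKO and 191 CPM in WT. Partners of potassium channels outside the Kcn names had a median of −0.31 over 17, and the 1 called was Lgi1, a secreted partner of Kv1 complexes, which was lower at 9.44 CPM in dE3, 16.6 CPM in cKO and 19.5 CPM in WT. None of 11 sodium-potassium pump and cation-chloride transport genes was called, at a median of −0.08. In cKO against WT the medians of these lists lay between −0.01 (calcium channels) and 0.11 (pump and transport).

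**Figure D4:**
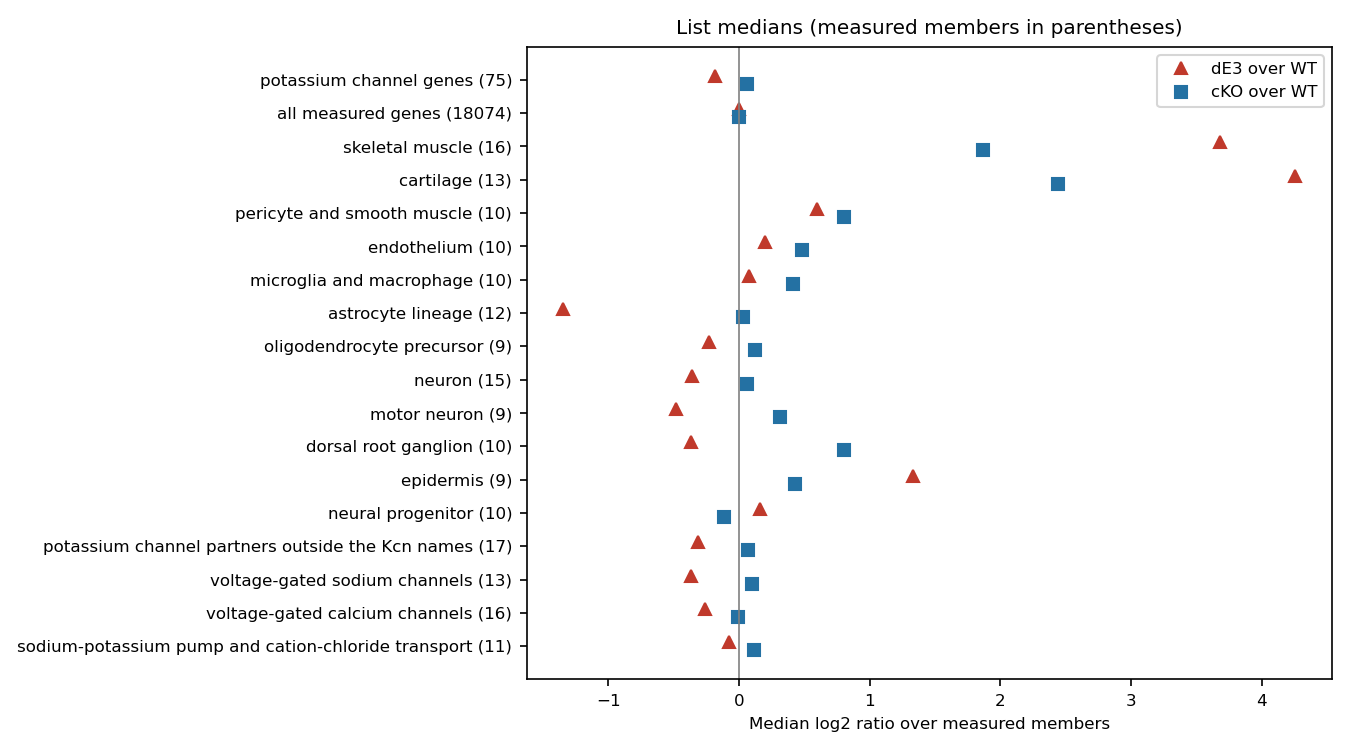
Median log2 ratio (x axis) of the potassium channel genes, all measured genes, 12 lists of cell type markers and 4 lists of other channels, partners and transporters (rows, measured members in parentheses), for dE3 over WT (triangles) and cKO over WT (squares). Astrocyte markers lie at −1.34 in dE3 and 0.03 in cKO, and cartilage and skeletal muscle markers lie highest in both.

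Estimated transcript use differed between libraries for some members, among them Kcnc2, whose gene counts were nearly level. Shares were compared for 46 members with at least 100 counts in both libraries and at least 2 transcripts with counts, and a shift was a share that differed by 50 percentage points or more. In dE3 against WT, 3 members shifted (6.52%), where 3.87% of all genes compared did. In cKO against WT, 5 shifted (10.9%, against 4.09%), and in dE3 against cKO, 4 (8.70%, against 3.83%). Kcna6, Kcnc2, Kcnh6, Kcnq5 and Kcnt2 were among them and are named because they shifted. The tool behind the transcript counts is not given in the sources used here, and reads that several transcripts share can be placed on either.

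Kcna6, a Kv1 pore, had a different leading transcript in each library. Kcna6-202 led in dE3, with 824 counts in dE3, 16 in cKO and 17 in WT. Kcna6-201, annotated as subject to nonsense-mediated decay, led in cKO, with 97 counts in dE3, 817 in cKO and 2 in WT. Kcna6-204 led in WT, with 390 counts in dE3, 96 in cKO and 536 in WT. At the gene level Kcna6 had 1318 counts in dE3, 1016 in cKO and 631 in WT, ratios of 1.90 (1.73 to 2.10) in dE3 and 1.56 (1.41 to 1.72) in cKO against WT, which miss the limit. In cKO, Kcna6-201 held 80.4% of the gene count. Kcna6-202 and Kcna6-204, annotated as protein-coding, both had fewer counts in cKO than in WT, so the higher gene count in cKO does not hold for them. By TPM the log2 ratio of the gene was 1.17 in dE3 against WT, which is called, and 0.57 in cKO against WT, which is not. Kcna6-201 has 2 bases of its own among 5827, and Kcna6-202 has 0 among 3464. Of the sampled Kcna6 sequence, 37.7% also occurs in other genes, mainly Gm26673. The split thus rests on little or no sequence particular to each transcript.

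Kcnq5, Kcnt2, Kcnh6 and Kcnc2 had no called gene count. Kcnq5, a pore of the M current that restrains repetitive firing, had 208 counts in dE3, 0 in cKO and 206 in WT for Kcnq5-201, while its gene counts were 237 in dE3, 117 in cKO and 216 in WT. Kcnq5-201 has 5 bases of its own among 6562, so this split also rests on little sequence of its own. Kcnt2-203 had 20 counts in dE3, 112 in cKO and 16 in WT. In both the cKO library differed from the other two. For Kcnh6, a transcript annotated for nonsense-mediated decay held 19 of 336 counts in dE3, 37 of 509 in cKO and 194 of 291 in WT, and here WT stood apart. Kcnc2-201 had 470 counts in dE3, 256 in cKO and 47 in WT, at gene counts of 710 in dE3, 682 in cKO and 648 in WT. Bases of their own were not counted for the transcripts of Kcnt2, Kcnh6 and Kcnc2. Kcnj16 was below the minimum for this comparison, but all of its counts lay in Kcnj16-201 in dE3 (32) and WT (62) and in Kcnj16-206 in cKO (66).

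**Figure D5:**
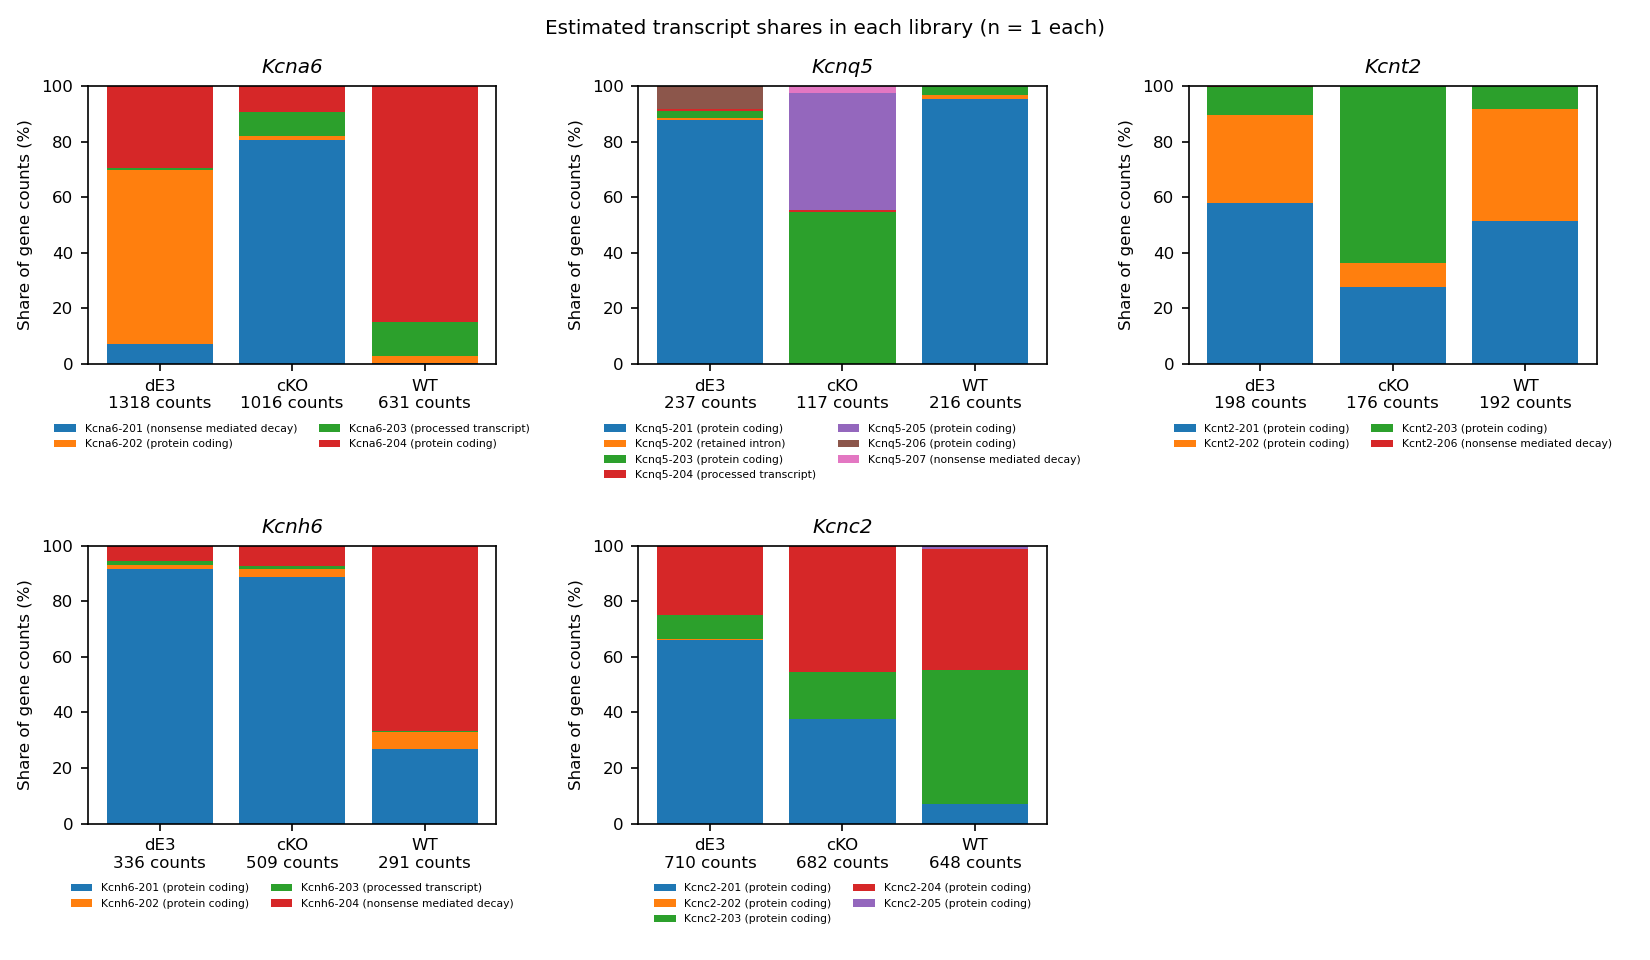
Share of the estimated gene count (y axis, percent) held by each transcript (colours, with annotated type) in dE3, cKO and WT, for 5 members with a shift of at least 50 percentage points. The leading colour of Kcna6 differs in each library, and the Kcnq5-201 part is absent in cKO, at 0 counts. Kcnq5-201 has 5 bases of its own among 6562.

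Members that lie next to each other were also compared, with the pairs given here chosen after their values were seen. Kcnj9 and Kcnj10 start 11891 bases apart on opposite strands of chromosome 1, with log2 ratios of −0.31 for Kcnj9 and −2.61 for Kcnj10 in dE3 against WT. Kcnj16 and Kcnj2 lie 38195 bases apart on chromosome 11, at −1.09 for Kcnj16 and −0.52 for Kcnj2. Kcna1 and Kcna6 lie 61944 bases apart on chromosome 6, at −0.06 for Kcna1 and 0.93 for Kcna6. The 95% counting intervals of the Kcnj16 and Kcnj2 ratios overlap (0.297 to 0.732 for Kcnj16 and 0.577 to 0.840 for Kcnj2), and those of the other pairs do not.

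Promoters were searched for the TCF/LEF core, since β-catenin acts through these factors. The letters CTTTGAT and CTTTGTT were sought on both strands in the 250 bases before each RefSeq start (GRCm38.p6), and 52 measured members had an entry. A match was found in 5 of the 52 (9.62%) and in 2490 of 27025 genes in all (9.21%). Of the members called in dE3 against WT with an entry, 2 of 3 higher genes and 2 of 4 lower genes held a match. The first line below is Kcnj10 (chr1:172340960-172341209, plus strand), the member with the lowest ratio, which holds no match in this window. The others are Kcne4 (chr1:78816661-78816910, plus strand) and Kcnmb4 (chr10:116473524-116473773, minus strand), a higher and a lower gene with a match, shown in capitals at 239 bases and 143 bases before the start.
Kcnj10: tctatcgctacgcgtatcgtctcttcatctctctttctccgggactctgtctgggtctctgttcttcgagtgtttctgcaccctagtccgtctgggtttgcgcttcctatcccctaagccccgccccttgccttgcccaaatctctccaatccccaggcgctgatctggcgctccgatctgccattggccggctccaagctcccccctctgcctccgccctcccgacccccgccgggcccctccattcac
Kcne4: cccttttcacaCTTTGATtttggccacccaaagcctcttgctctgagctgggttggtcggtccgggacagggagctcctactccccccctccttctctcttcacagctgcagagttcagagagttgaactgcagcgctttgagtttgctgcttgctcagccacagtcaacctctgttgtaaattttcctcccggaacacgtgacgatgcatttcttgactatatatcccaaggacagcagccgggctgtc
Kcnmb4: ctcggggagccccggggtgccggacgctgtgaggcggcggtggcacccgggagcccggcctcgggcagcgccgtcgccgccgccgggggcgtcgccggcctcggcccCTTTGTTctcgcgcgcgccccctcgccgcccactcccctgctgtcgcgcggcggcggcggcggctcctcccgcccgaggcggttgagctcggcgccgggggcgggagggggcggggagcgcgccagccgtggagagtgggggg
A match is a description of letters, not evidence of binding, and matches stood before genes of both directions.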

How the data were processed

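The authors deposited estimated counts, TPM and FPKM per gene and per transcript, per the file headers. The counts were whole numbers, and each gene's count equalled the sum over its transcripts. CASAVA, Bowtie2 2.3.2 and GRCm38.p6 are listed, without roles, per the submitters' processing notes. For the quantification tool, annotation release and use of strand: not given in the sources used here. Coordinates are those of the deposited table, and 77 of the 92 members have the same ones in GENCODE vM21. Libraries came from 1 µg of total RNA with an mRNA kit. The counts of 3 libraries were scaled by TMM (edgeR 4.0.16, R 4.3.3), fitted on the measured genes, with factors of 1.007 (dE3), 0.999 (cKO) and 0.993 (WT). Ratios have exact conditional binomial (Clopper-Pearson) intervals at 95%, and shares exact binomial ones. PCR copies of 1 molecule cannot be recognised, so these cover counting error only. No p-value was computed. The deposited FPKM values were not used, and the deposited TPM values served to compare levels between genes and as an alternative. Sequence sharing is the percent of 50-base words, sampled at 1 in 16, that occur in another gene's transcripts. Genes named were those called in any comparison, the 10 highest by TPM in WT and the member of each subfamily with the highest mean CPM (34 in all, of which 31 are given). Some genes and sequences are not reported here. Kcna6, Kcnc2, Kcnh6, Kcnj3, Kcnq5, Kcnt2 and the other members named were chosen after their values were seen. The members and lists were chosen with earlier results of these data known.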

Additional observations from a re-analysis of the deposited data

How the results depend on the processing

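DESeq2 size factors or library totals in place of TMM left every count of called members as it was, except that Kcnh3 lost its call and 4 members remained lower in dE3 against WT. They moved the median of all genes by less than 0.03 on the log2 scale. With a minimum of 1 count, 2 members were higher in cKO against WT, and the share over all genes was not computed. With a minimum of 100 counts, 3 were higher (4.92%, against 4.55% of all genes) and 3 lower (4.92%, against 1.76%) in dE3 against WT. Then 0 were higher in cKO against WT (against 1.84%) and 4 lower in dE3 against cKO (6.56%, against 2.56%). At a 1.5-fold limit, 6 members were higher (8%, against 11.4% of all genes) and 11 lower (14.7%, against 8.01%) in dE3 against WT. There were 8 higher (10.7%, against 7.20%) and 4 lower (5.33%, against 6.67%) in cKO against WT, and in dE3 against cKO 4 were higher (5.33%, against 12.5%) and 20 lower (26.7%, against 9.53%). At a 3-fold limit, 1 was higher and 1 lower (Kcnj10) in dE3 against WT, 0 higher and 0 lower in cKO against WT, and 0 higher and 1 lower in dE3 against cKO. With protein-coding transcripts only, an alternative chosen after seeing the data, 2 were higher and 2 lower in cKO against WT and 2 higher in dE3 against cKO. In cKO against WT, Kcnh6 was among the higher and Kcna6 among the lower. In dE3 against WT, Kcnmb4 was no longer called, while Kcnh6 was called higher and Kcna6 passed the limit narrowly. The coding transcript Kcnh6-201 held 308 counts in dE3, 452 in cKO and 78 in WT. Shares over all genes were not computed for this setting.

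Leaving out the transcript that differs most, 11 members were higher in dE3 against WT, with a median log2 ratio of −0.0088. Then 3 were higher and 7 lower in cKO against WT, and 6 were higher in dE3 against cKO, with a median of −0.15. Shares over all genes were not computed for this setting. In dE3 against cKO the log2 ratio reversed for Kcnj11 (0.91), where the transcript left out held 165 of 185 counts in dE3 and 377 of 387 in cKO. For Kcnj16 each library's counts lie in 1 transcript, so the setting leaves 32 counts in dE3 against 0 in cKO (log2 ratio at least 3.33, with the floor of 3 counts per library) and 0 against 0 in dE3 against WT. These values are fixed by the setting and bear on no change of Kcnj16, which is counted among the 6 higher and 7 lower above. Kcnip3 lost its call in dE3 against WT. By the deposited TPM, Kcna6 was called higher and Kcnj3 lower in dE3 against WT, and Kcnj3 was the member lower in cKO against WT, while Kcnj11 and Kcng2 lost their calls in dE3 against cKO. The causes were not tested. No paired analysis was possible because each genotype has 1 library. Depth limits the genes with few counts, of which Kcnj15 and Kcnmb1 have the widest intervals among those called.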
